A study of Mus musculus with 12 samples.

Results

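Interferon-stimulated genes are the genes that cells switch on when a type I or type III interferon, or for some of them interferon gamma, binds its receptor. The receptors signal through JAK kinases to STAT proteins. A complex with STAT2 and IRF9 binds interferon-stimulated response elements, gamma-activated sites serve interferon gamma, and the products include antiviral enzymes, RNA sensors and the regulators that amplify or shut off the response. In injured nervous tissue this programme is known from microglia, astrocytes and infiltrating myeloid cells. The group described here is a list of 37 such genes chosen by name, of which 34 were measured among 19938 genes. Ifi44 had no listed probe set. Isg15 and Igtp shared a probe set with another gene and stand outside the tests.

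The samples were contused spinal cords of 3 groups of mice, with 4 arrays each: Il1a KO mice, Il1b KO mice and wild-type C57BL/6 mice. Both knockouts were on the C57BL/6 background and all mice were 8 to 12 weeks old. Every group received the same 50 kdyn contusion, and total RNA came from a 6 mm length of cord around the lesion 24 hours later. The labels give neither the deleted exons of the knockouts nor the number of animals behind an array, and uninjured cord was not analysed here, so induction of these genes by the injury is not shown.

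Values are log2 array intensities, and a difference is a log2 fold change, coded as knockout minus C57BL/6 or, between the knockouts, as Il1a KO minus Il1b KO. Both knockout comparisons use the same C57BL/6 arrays. The deleted genes were read first as a check of the labels. The Il1b probe set averaged 6.42 ± 0.183 in Il1b KO cords and 7.83 ± 0.161 in C57BL/6 cords (SD, n = 4 each). The Il1a probe set averaged 4.97 ± 0.0749 in Il1a KO cords, 5.10 ± 0.209 in Il1b KO cords and 5.87 ± 0.232 in C57BL/6 cords. It was lower than in C57BL/6 in the Il1a KO (adjusted p = 0.00372) and in the Il1b KO (adjusted p = 0.0039, limma), and Il1a KO against Il1b KO gave an adjusted p of 0.849 by limma, so it does not set the Il1a KO arrays apart from the Il1b KO arrays. The Il1b probe set, at 8.08 ± 0.0946 in the Il1a KO, does. Array medians lay between 7.67 and 7.72. Markers of spinal cord cells were bright in all groups, with mean log2 values of 11.54 to 11.62 on the Il1a KO arrays, 11.53 to 11.59 on the Il1b KO arrays and 11.49 to 11.53 on the C57BL/6 arrays. Il1a KO replicate 1 stood apart in sex-linked genes, with Xist at 6.47 against 11.9 to 12.2 on the other 11 arrays. It was also the highest of the 12 arrays for the other 3 measured genes, the Y-linked Eif2s3y, Kdm5d and Uty. By these genes it reads as male and the other 11 arrays as female, while the labels give no sex. The part of sex in the members' differences and spread was not tested. The count of members past the test, their median difference and their spread in the Il1a KO are also given without this array.

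No interferon-stimulated gene passed an adjusted p of 0.05 in limma's moderated test (Benjamini-Hochberg over all 19938 genes) in any comparison. The counts were 0 of 34 in Il1a KO against C57BL/6, 0 of 34 in Il1b KO against C57BL/6 and 0 of 34 in Il1a KO against Il1b KO, where 0.171%, 0.813% and 0.652% of all genes passed. At an unadjusted p under 0.05 the Il1a KO comparison held 0 of 34 members, beside 8.32% of all genes. The Il1b KO comparison held 3 members, all lower (Oasl2, Ifit2 and Gbp3), beside 4.58% of all genes that were lower at that p. It held 0 higher members, beside 8.42% of all genes. In either direction 2593 of 19938 genes reached that p in the Il1b KO. Between the knockouts 5 members were higher in the Il1a KO (Oasl2, Gbp5, Ifit2, Cmpk2 and Ifit3), beside 2.99% of all genes. There 0 members were lower, and 7.79% of all genes reached that p in either direction. The arrays of 2 groups did not overlap for 0 of 34 members in Il1a KO against C57BL/6, beside 5.06% of all genes. In Il1b KO against C57BL/6 they did not overlap for 2 of 34 members, both lower. Beside these stood 1.94% of all genes in that direction, and 1396 of 19938 genes in either direction. In Il1a KO against Il1b KO the count was 0 of 34, beside 7.24%.

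The members' differences lay mostly below zero in the Il1b KO and on both sides of zero in the Il1a KO, and none passed the test. In Il1b KO cords 31 of 34 members had a lower mean than in C57BL/6 cords, with a median log2 fold change of -0.13, while 52.0% of all genes had a positive difference and their median was 0.00. In Il1a KO cords 19 of 34 members were lower and the median was -0.02, beside 50.2% positive and a median of 0.00 over all genes. Set against each other, 25 of 34 members were higher in Il1a KO than in Il1b KO cords, with a median of 0.13, while 47.3% of all genes were higher. Without Il1a KO replicate 4 the medians were -0.11 in the Il1a KO against C57BL/6 and 0.06 between the knockouts, so the contrast between the knockouts leans on that array. These shares are descriptions, because members vary together on an array, as shown next, and do not count as separate observations. In bulk tissue, fewer cells of a type and less RNA per cell cannot be told apart.

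**Figure D1:**
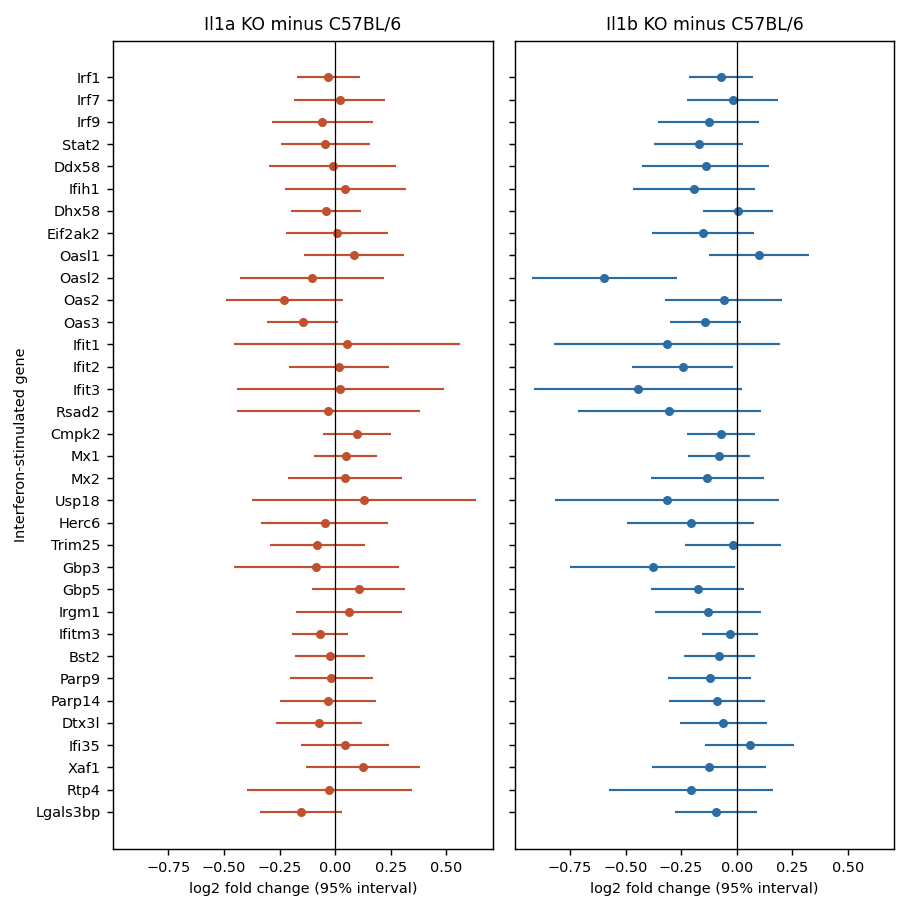
Log2 fold changes (points) with 95% intervals (lines) of the 34 measured interferon-stimulated genes, grouped by role from top to bottom, for Il1a KO minus C57BL/6 (left) and Il1b KO minus C57BL/6 (right). The Il1a KO points lie between -0.23 and 0.13, and the Il1b KO points between -0.60 for Oasl2 and 0.10 for Oasl1.

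The widest feature of the data was variation between arrays of the same genotype. The mean over the 34 members was 8.42 ± 0.240 in Il1a KO cords, 8.28 ± 0.127 in Il1b KO cords and 8.43 ± 0.0953 in C57BL/6 cords (SD, n = 4 each). On single arrays it ran from 8.17 to 8.70 in the Il1a KO, from 8.17 to 8.43 in the Il1b KO and from 8.36 to 8.57 in C57BL/6. Il1a KO replicate 4 was the highest of the 12 arrays for 21 of 34 members. Il1a KO replicate 1 was the lowest of the 12 for 13 members and Il1b KO replicate 2 for 14. The highest member mean thus occurred among the Il1a KO arrays, the lowest was 8.17 in both knockouts, and the Il1a KO mean lay near that of C57BL/6.

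Within the Il1a KO, replicate 4 exceeded replicate 1 in 34 of 34 members, by a median of 0.49, whereas 56.7% of all genes were higher, by a median of 0.01. The smallest gap was 0.13 for Irf1 and the largest 1.31 for Usp18, a 2.48-fold difference, followed by Ifit1 at 2.33-fold and Ifit3 at 2.20-fold. Within the Il1b KO, replicate 3 exceeded replicate 1 in 33 of 34 members, by a median of 0.25, and in 52.5% of all genes. Within C57BL/6, replicate 3 exceeded replicate 2 in 28 of 34 members, by a median of 0.21, and in 42.8% of all genes. The pairs of arrays were taken as those with the highest and lowest member mean in each group, so these gaps are descriptions and carry no test.

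The SD between arrays of a group had a median over members of 0.226 in Il1a KO cords, 0.145 in Il1b KO cords and 0.128 in C57BL/6 cords, against medians over all genes of 0.0579, 0.0702 and 0.0960. Of the 34 members, 31 were among the 10% of genes with the largest SD in the Il1a KO, 15 in the Il1b KO and 3 in C57BL/6. The SD was larger in Il1a KO than in C57BL/6 cords for 31 members, while this held for 23.7% of all genes. The difference in spread between the groups was not tested. Without Il1a KO replicate 1, the median SD of members in the Il1a KO was 0.204, beside 0.0514 over all genes, 29 of 34 members were among the 10% with the largest SD, and 30 had a larger SD than in C57BL/6, as had 21.2% of all genes. On the 3 arrays left, the member mean ran from 8.28 to 8.70, and replicate 4 exceeded replicate 2 in 33 of 34 members, by a median of 0.39, while 60.1% of all genes were higher. Without Il1a KO replicate 4 in place of replicate 1, 27 of 34 members were among that 10%. Because of this spread, the 95% interval of a member's log2 fold change had a median half-width of 0.225, beside 0.125 over all genes.

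**Figure D2:**
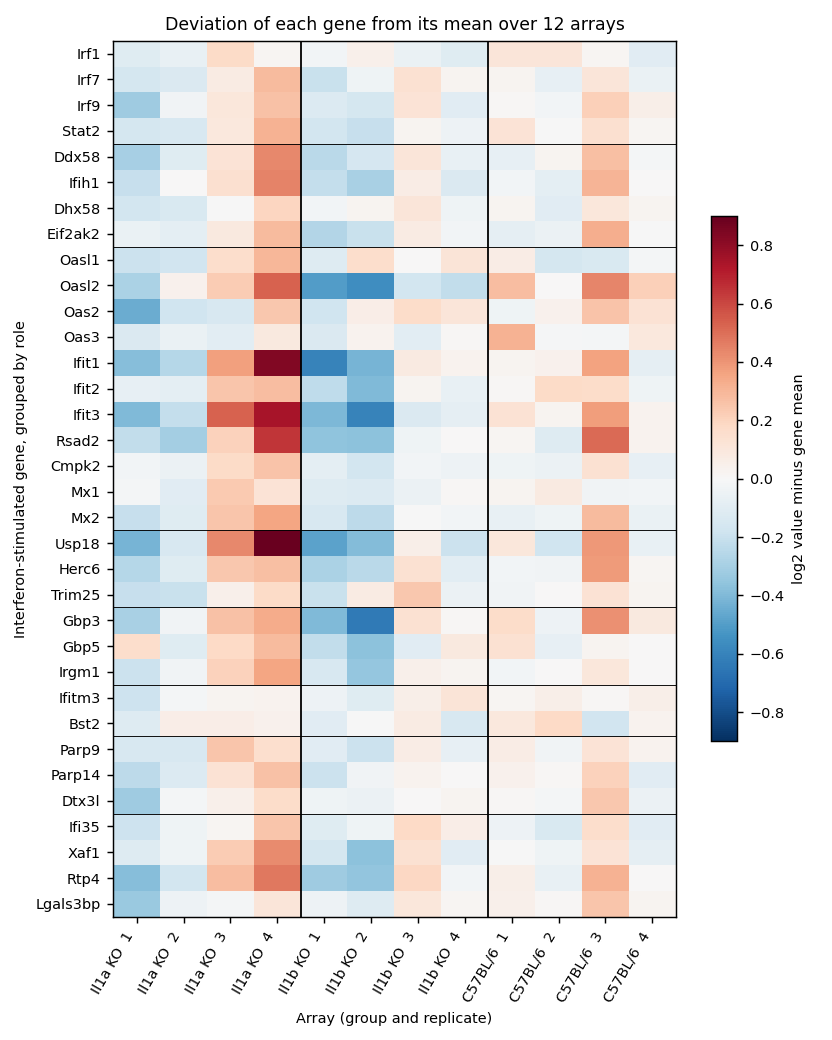
Deviation of each of the 34 members from its own mean over the 12 arrays, in log2 units from blue (lower) to red (higher), with genes in rows grouped by role and arrays in columns, Il1a KO, Il1b KO and C57BL/6 from left to right with replicate numbers. Il1a KO replicate 4 is the highest of the 12 arrays for 21 members and Il1a KO replicate 1 the lowest for 13.

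Markers of infiltrating cells and of microglia were read on the same arrays. The mean deviation of the 34 members from their means over all arrays was -0.21, -0.10, 0.16 and 0.32 on Il1a KO replicates 1 to 4. On those arrays the 14 monocyte and macrophage markers deviated by -0.31, 0.01, -0.12 and -0.08, the 15 neutrophil markers by -0.28, 0.01, 0.01 and -0.19, and the 11 microglial markers by 0.10, -0.02, 0.04 and 0.01. The array with the lowest member mean was thus also the lowest of the group in monocyte and neutrophil markers, but the array with the highest member mean was not the highest of the group in any of these lists.

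In the Il1b KO the members deviated by -0.21, -0.20, 0.05 and -0.03 on replicates 1 to 4, the monocyte and macrophage markers by -0.17, 0.16, 0.20 and 0.10, and the neutrophil markers by -0.36, 0.18, -0.00 and -0.00. Replicate 2 was low in members and high in both marker lists. Members and monocyte and macrophage markers were both highest on replicate 3 and lowest on replicate 1. In C57BL/6 both were highest on replicate 3 and lowest on replicate 2. Neutrophil markers were lowest on the same arrays, but highest on replicate 2 in the Il1b KO and replicate 4 in C57BL/6. Microglial markers were highest on replicate 3 and lowest on replicate 4 in the Il1b KO. In C57BL/6 they were highest on replicate 2 and lowest on replicate 3. The mean log2 level of the monocyte and macrophage list ranged over 8.80 to 9.12 in Il1a KO, 8.94 to 9.31 in Il1b KO and 9.02 to 9.35 in C57BL/6 arrays. That of the neutrophil list ranged over 7.37 to 7.66, 7.29 to 7.83 and 7.66 to 7.96 in the same order. Of the neutrophil markers, 15 of 15 had a lower mean in Il1a KO and 13 of 15 in Il1b KO than in C57BL/6 cords. Of the monocyte and macrophage markers, 11 of 14 and 7 of 14 were lower, and of all genes 49.8% and 48.0%. In the Il1b KO 1 neutrophil marker, Ly6g, passed the test (-0.55, adjusted p = 0.00869 by limma). The part of cell numbers in the members' differences was not tested.

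**Figure D3:**
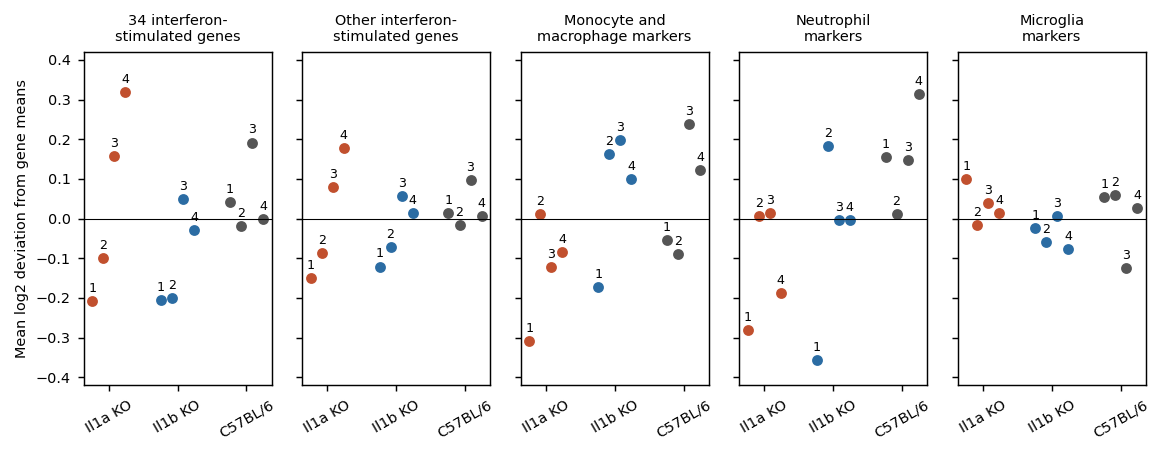
Mean log2 deviation from the gene means over all 12 arrays (vertical axis) for the 34 members and 4 other gene lists, with 1 point per array and the replicate number above it. Il1a KO replicates 1 to 4 spread from -0.21 to 0.32 for the members, while microglial markers stay between -0.02 and 0.10 on the same arrays.

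Sequence before the transcription start was examined because the members varied together. Of the 34 members, 26 had a promoter entry in RefSeq (GRCm38.p6), read here as the 250 bases before the start given in that entry. That start can lie inside the outer bounds of the gene, as for Gbp3 and Oasl2 below. The letters GAAANNGAA, within the core of an interferon-stimulated response element, or TTCNNTTTC on the other strand, occurred in 11 of 26 members (42.3%) and in 1248 of 15614 genes with an entry (7.99%). The 11 were Oas3, Ifit1, Ifit3, Rsad2, Stat2, Ifih1, Gbp3, Gbp5, Irgm1, Bst2 and Trim25. The gamma-activated site TTCNNNGAA, which reads the same on both strands, occurred in 5 of 26 members (19.2%), which were Ifit2, Irf1, Gbp5, Bst2 and Eif2ak2, and in 1204 of 15614 genes (7.71%). A match is a match of letters only, and its absence says only that these letters are not in this window. A longer form of the response element letters was searched first. The members were chosen by name as interferon-stimulated genes, so a higher share than over all genes does not show why they varied together.

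The promoters below show the arrangement in 4 members with a match and in Oasl2, which has none in the window and had the lowest log2 fold change in the Il1b KO. Each is written 5′ to 3′ on the strand of its gene, with matches to the response element letters in capitals. Ifit1 (chr19:34640639-34640888, plus strand) holds 3 matches, of which the nearest ends 76 bases before the start and the other two overlap. Gbp3 (chr3:142559794-142560043, plus strand) and Irgm1 (chr11:48871421-48871670, minus strand) each hold 2 overlapping matches, and Stat2 (chr10:128270248-128270497, plus strand) holds 1. The Oasl2 window is chr5:114896684-114896933, plus strand.
Ifit1: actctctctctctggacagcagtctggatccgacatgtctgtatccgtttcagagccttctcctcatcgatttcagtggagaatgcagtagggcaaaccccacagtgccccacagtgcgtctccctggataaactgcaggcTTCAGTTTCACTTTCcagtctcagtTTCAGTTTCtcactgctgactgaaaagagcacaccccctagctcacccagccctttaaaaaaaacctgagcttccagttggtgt
Gbp3: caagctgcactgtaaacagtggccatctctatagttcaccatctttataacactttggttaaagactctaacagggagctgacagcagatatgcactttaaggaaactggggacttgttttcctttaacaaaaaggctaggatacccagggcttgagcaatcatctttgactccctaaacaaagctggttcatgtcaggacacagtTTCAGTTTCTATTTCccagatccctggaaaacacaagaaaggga
Irgm1: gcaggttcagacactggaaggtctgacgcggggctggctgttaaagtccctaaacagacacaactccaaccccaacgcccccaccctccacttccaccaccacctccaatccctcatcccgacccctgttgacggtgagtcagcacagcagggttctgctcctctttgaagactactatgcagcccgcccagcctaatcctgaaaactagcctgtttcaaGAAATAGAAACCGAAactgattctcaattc
Stat2: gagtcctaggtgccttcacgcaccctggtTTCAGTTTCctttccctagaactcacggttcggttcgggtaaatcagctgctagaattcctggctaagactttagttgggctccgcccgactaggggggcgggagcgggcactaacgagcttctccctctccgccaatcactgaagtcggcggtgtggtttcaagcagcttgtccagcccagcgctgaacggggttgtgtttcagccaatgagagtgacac
Oasl2: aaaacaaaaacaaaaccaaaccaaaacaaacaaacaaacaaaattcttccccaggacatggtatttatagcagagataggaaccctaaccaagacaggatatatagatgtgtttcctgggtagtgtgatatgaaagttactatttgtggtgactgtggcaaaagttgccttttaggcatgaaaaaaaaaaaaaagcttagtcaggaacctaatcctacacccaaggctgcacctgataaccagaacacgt
Members with a response element match had a median SD of 0.245 between Il1a KO arrays and of 0.154 between C57BL/6 arrays (n = 11). Members without one had medians of 0.206 and 0.107 (n = 15), and the difference was not tested.

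Of the transcription factors of the response, 0 of 4 passed the test. Their median log2 fold change was -0.04 in the Il1a KO, with 3 of 4 lower, and -0.10 in the Il1b KO, with 4 of 4 lower. Stat2, the STAT partner of IRF9, had log2 values of 8.95, 8.96, 9.20 and 9.42 in Il1a KO cords, 8.94, 8.90, 9.13 and 9.06 in Il1b KO cords and 9.23, 9.11, 9.25 and 9.13 in C57BL/6 cords. The groups overlapped, and the log2 fold change was -0.04 in the Il1a KO and -0.17 (SE 0.0927, adjusted p = 0.46 by limma) in the Il1b KO. Irf9, which completes the complex, averaged 9.17 ± 0.246 in Il1a KO, 9.11 ± 0.128 in Il1b KO and 9.23 ± 0.105 in C57BL/6 cords. Irf7, the factor that amplifies type I interferon production, averaged 7.91 ± 0.207, 7.87 ± 0.14 and 7.89 ± 0.0848 in the same groups. Irf1, a target of interferon gamma and of NF-kB signalling, averaged 7.52 ± 0.124, 7.48 ± 0.0645 and 7.55 ± 0.101. Irf7 and Irf1 differed from C57BL/6 by at most 0.07 on the log2 scale in either knockout.

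The sensors of foreign RNA, Ddx58 (RIG-I), Ifih1 (MDA5), Dhx58 (LGP2) and the RNA-activated kinase Eif2ak2 (PKR), gave 0 of 4 past the test. Their log2 fold changes in the Il1a KO ran from -0.04 for Dhx58 to 0.05 for Ifih1. In the Il1b KO they were -0.19 for Ifih1, -0.15 for Eif2ak2, -0.14 for Ddx58 and 0.01 for Dhx58. The SD of Ddx58 was 0.314 between Il1a KO arrays and 0.151 between C57BL/6 arrays, larger than any of these differences in the Il1a KO.

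Among the 11 antiviral effectors, the oligoadenylate synthetase family held the member with the smallest p. Oasl2, an oligoadenylate synthetase-like protein with antiviral activity, had log2 values of 9.47, 9.80, 9.99 and 10.28 in Il1a KO cords, 9.25, 9.20, 9.59 and 9.54 in Il1b KO cords and 10.03, 9.76, 10.19 and 9.97 in C57BL/6 cords. All Il1b KO arrays lay below all C57BL/6 arrays, as they did for 1 other member, Ifit3. The log2 fold change was -0.60 (SE 0.151, 95% interval -0.92 to -0.27), a 1.51-fold lower value, with an adjusted p of 0.106 by limma. In the Il1a KO it was -0.10 (adjusted p = 0.943 by limma), and Oasl2 was 0.49 higher in the Il1a KO than in the Il1b KO (adjusted p = 0.316 by limma). The Il1b KO call was close to the threshold: with array quality weights the adjusted p was 0.0453, and without Il1b KO replicate 1 it was 0.273 (limma).

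Oasl1, the paralog that lies 10.9 kb from Oasl2 and restrains Irf7 translation in mice, did not share the Oasl2 pattern. It had log2 values of 7.85, 7.87, 8.20 and 8.33 in Il1a KO cords, 7.92, 8.19, 8.04 and 8.15 in Il1b KO cords and 8.11, 7.88, 7.90 and 8.02 in C57BL/6 cords, with overlapping groups and a log2 fold change of 0.10 in the Il1b KO (adjusted p = 0.727 by limma). The difference between the Oasl2 and Oasl1 probe sets on the same array was 1.62, 1.93, 1.79 and 1.95 in Il1a KO, 1.33, 1.005, 1.54 and 1.38 in Il1b KO and 1.93, 1.88, 2.29 and 1.95 in C57BL/6 cords. The Il1b KO values of this difference lay below all C57BL/6 values. It was looked at after the values of both genes were seen, and carries no test.

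The synthetases that activate RNase L differed less from C57BL/6 than Oasl2 did in the Il1b KO, and more than Oasl2 did in the Il1a KO, and none of these differences passed the test. Oas3 had log2 values of 7.08, 7.15, 7.11 and 7.30 in Il1a KO cords, 7.08, 7.24, 7.11 and 7.22 in Il1b KO cords and 7.52, 7.20, 7.19 and 7.30 in C57BL/6 cords, a log2 fold change of -0.15 (SE 0.074, adjusted p = 0.659 by limma) in the Il1a KO and -0.14 in the Il1b KO. Oas2 had 7.38, 7.65, 7.68 and 8.08 in Il1a KO cords, 7.65, 7.89, 7.99 and 7.94 in Il1b KO cords and 7.79, 7.87, 8.09 and 7.96 in C57BL/6 cords. Its log2 fold change was -0.23 (SE 0.122, adjusted p = 0.687 by limma) in the Il1a KO, the lowest of the 34 in that comparison, and -0.06 in the Il1b KO. For both genes the knockout and C57BL/6 arrays overlapped.

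The Ifit genes, neighbours on chromosome 19 that encode proteins binding foreign RNA or blocking translation, varied to unequal degrees. Ifit3 had log2 values of 9.67, 9.85, 10.60 and 10.80 in Il1a KO cords, 9.66, 9.46, 9.94 and 9.99 in Il1b KO cords and 10.19, 10.09, 10.44 and 10.10 in C57BL/6 cords. The Il1b KO arrays lay below all C57BL/6 arrays, with a log2 fold change of -0.44 (SE 0.216, adjusted p = 0.411 by limma), while the Il1a KO arrays spanned both and gave 0.02. Ifit2 had 8.24, 8.22, 8.56 and 8.59 in Il1a KO cords, 8.08, 7.91, 8.34 and 8.24 in Il1b KO cords and 8.32, 8.48, 8.47 and 8.27 in C57BL/6 cords. The Il1b KO overlapped C57BL/6 at the top of its range, and the log2 fold change was -0.24 (adjusted p = 0.349 by limma). Between Il1a KO arrays the SD of Ifit2 was 0.201, below the member median of 0.226, and that of Ifit3 was 0.557. Ifit1 averaged 9.16 ± 0.568 in Il1a KO, 8.80 ± 0.333 in Il1b KO and 9.11 ± 0.191 in C57BL/6 cords.

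Rsad2 (viperin) and Cmpk2 are adjacent genes of nucleotide metabolism, separated by 12.7 kb on chromosome 12. Rsad2 averaged 8.04 ± 0.439 in Il1a KO, 7.76 ± 0.202 in Il1b KO and 8.07 ± 0.272 in C57BL/6 cords. Cmpk2 had log2 values of 8.69, 8.67, 8.89 and 8.97 in Il1a KO cords, 8.63, 8.55, 8.69 and 8.67 in Il1b KO cords and 8.68, 8.66, 8.85 and 8.64 in C57BL/6 cords. It was 0.17 higher in the Il1a KO than in the Il1b KO (adjusted p = 0.589 by limma), and the arrays of the knockouts overlapped. Mx2, a dynamin-like GTPase, averaged 6.45 ± 0.27, 6.28 ± 0.108 and 6.41 ± 0.168 in Il1a KO, Il1b KO and C57BL/6 cords. Its paralog Mx1, which is disrupted in most laboratory strains, was dim, at 5.69 ± 0.15, 5.57 ± 0.0618 and 5.65 ± 0.0525.

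**Figure D4:**
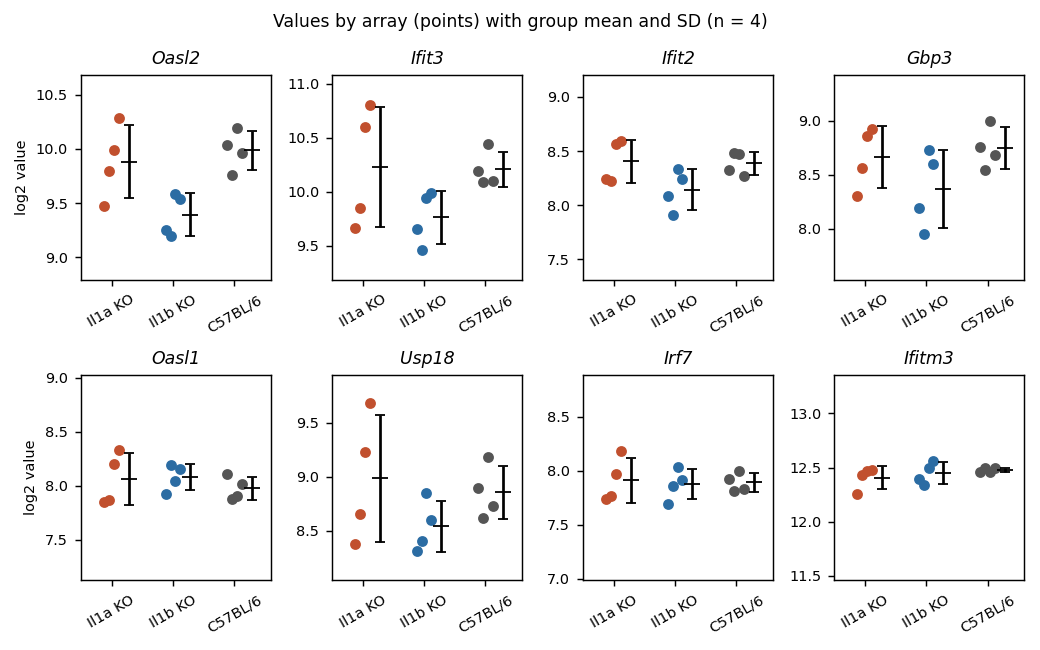
Log2 values on each array (points) with the group mean and SD (bars, n = 4) of 8 members, for Il1a KO, Il1b KO and C57BL/6 from left to right, on axes of equal span. The Il1b KO arrays of Oasl2 and Ifit3 lie below all C57BL/6 arrays, and the Il1a KO arrays of Usp18 spread from 8.37 to 9.68.

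Of the ISG15 system, which attaches the ubiquitin-like protein ISG15 to targets, Usp18 had the largest SD of any member between Il1a KO arrays, at 0.586, though not in the other groups. Usp18, the protease that removes ISG15 and dampens the type I receptor, had log2 values of 8.37, 8.65, 9.22 and 9.68 in Il1a KO cords, 8.31, 8.40, 8.85 and 8.60 in Il1b KO cords and 8.89, 8.62, 9.18 and 8.72 in C57BL/6 cords. Its Il1a KO log2 fold change was 0.13 with a 95% interval of -0.37 to 0.63. In the Il1b KO it was -0.31 (adjusted p = 0.607 by limma). Herc6, the ISG15 ligase of mice, and Trim25, a ubiquitin ligase of the RIG-I pathway, differed from C57BL/6 by -0.05 and -0.08 in the Il1a KO and by -0.21 and -0.02 in the Il1b KO. The probe set shared by Isg15 and Gm9706 read 6.53, 6.90, 6.92 and 7.02 in Il1a KO cords, 6.61, 6.66, 6.72 and 6.76 in Il1b KO cords and 7.05, 6.75, 6.57 and 6.77 in C57BL/6 cords, and cannot be assigned to either gene.

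The GTPases of cell-autonomous defence attack the vacuoles of intracellular microbes and respond mainly to interferon gamma. Gbp3 had log2 values of 8.30, 8.56, 8.86 and 8.93 in Il1a KO cords, 8.20, 7.95, 8.73 and 8.60 in Il1b KO cords and 8.76, 8.55, 9.001 and 8.68 in C57BL/6 cords, a log2 fold change of -0.38 (SE 0.171, adjusted p = 0.376 by limma) in the Il1b KO. The groups overlapped, since Il1b KO replicates 3 and 4 lay within the C57BL/6 range. Gbp5 had 6.39, 6.12, 6.41 and 6.52 in Il1a KO cords, 6.01, 5.86, 6.13 and 6.32 in Il1b KO cords and 6.37, 6.15, 6.26 and 6.24 in C57BL/6 cords, and was 0.28 higher in the Il1a KO than in the Il1b KO (adjusted p = 0.42 by limma). Irgm1 averaged 9.15 ± 0.245 in Il1a KO, 8.96 ± 0.183 in Il1b KO and 9.09 ± 0.0561 in C57BL/6 cords.

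The probe set shared by Igtp and Irgm2, both of the same GTPase class, read 8.05, 8.28, 8.62 and 8.83 in Il1a KO cords, 7.82, 7.68, 8.13 and 8.09 in Il1b KO cords and 8.49, 8.31, 8.51 and 8.32 in C57BL/6 cords. The Il1b KO arrays lay below all C57BL/6 arrays, with a log2 fold change of -0.48 (adjusted p = 0.287 by limma over all probe sets). In the Il1a KO it was 0.04. The probe set does not separate the 2 genes and is not counted among the 34.

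Among the remaining members no difference passed the test. Ifitm3, a membrane protein that blocks viral entry, had log2 values of 12.25, 12.43, 12.47 and 12.48 in Il1a KO cords, 12.39, 12.34, 12.50 and 12.56 in Il1b KO cords and 12.46, 12.50, 12.46 and 12.49 in C57BL/6 cords. Its C57BL/6 arrays spanned less than those of either knockout, and its differences were -0.07 and -0.03 in the Il1a KO and the Il1b KO. Bst2 (tetherin), which holds budding virus at the cell surface, averaged 8.66 ± 0.084 in Il1a KO, 8.60 ± 0.0987 in Il1b KO and 8.68 ± 0.149 in C57BL/6 cords. Parp9, its partner ligase Dtx3l and Parp14 differed by -0.07 to -0.02 in the Il1a KO and by -0.12 to -0.06 in the Il1b KO.

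Lgals3bp, a secreted galectin-binding glycoprotein, had log2 values of 10.22, 10.51, 10.54 and 10.66 in Il1a KO cords, 10.51, 10.44, 10.65 and 10.57 in Il1b KO cords and 10.60, 10.56, 10.80 and 10.58 in C57BL/6 cords, with overlapping groups and differences of -0.15 (adjusted p = 0.704 by limma) in the Il1a KO and -0.09 in the Il1b KO. Xaf1, a pro-apoptotic antagonist of XIAP, had 8.27, 8.35, 8.62 and 8.82 in Il1a KO cords, 8.23, 8.02, 8.53 and 8.29 in Il1b KO cords and 8.39, 8.35, 8.52 and 8.31 in C57BL/6 cords, with differences of 0.12 (adjusted p = 0.887) and -0.12 (adjusted p = 0.707 by limma). The groups of Xaf1 overlapped in every comparison. Rtp4, a chaperone of receptors at the membrane, averaged 8.51 ± 0.394, 8.33 ± 0.254 and 8.53 ± 0.165 in Il1a KO, Il1b KO and C57BL/6 cords, and Ifi35 averaged 7.95 ± 0.18, 7.96 ± 0.124 and 7.90 ± 0.132. The log2 fold change of Rtp4 was -0.03 in the Il1a KO and -0.21 (adjusted p = 0.658 by limma) in the Il1b KO.

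By interval, 32 of 34 members had a 95% interval within 0.5 of zero on the log2 scale in the Il1a KO comparison, the exceptions being Usp18 and Ifit1. In the Il1b KO comparison 27 of 34 did, and between the knockouts 25 of 34. Without Il1a KO replicate 1, the array that stood apart in sex-linked genes, 0 of 34 members passed the test in Il1a KO against C57BL/6 and the median log2 fold change was 0.06 rather than -0.02.

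The genes around Oasl2 were compared because Oasl2 and Oasl1 differed in direction in the Il1b KO. Oasl2 lies at chr5:114896926-114912245 and Oasl1 at chr5:114923143-114937911 (GRCm38.p6). Of the 48 measured genes within 1 Mb of Oasl2, 5 passed the test in the Il1b KO (10.4%), beside 0.813% of all genes: Kctd10 (0.26, adjusted p = 0.0118), Coq5 (0.33, 0.0162) and Gcn1 (0.22, 0.00869) rose, and Trpv4 (-0.29, 0.00363) and Rplp0 (-0.24, 0.00917) fell, by limma. In the Il1a KO 0 of the 48 passed. Of the 34 members, 3 had any neighbour within 1 Mb that passed in the Il1b KO (Oasl1, Oasl2 and Irf1) and 1 in the Il1a KO (Usp18). Oasl1 and Oasl2 lie at the same locus and had the same 5 such neighbours. The share of all genes with such a neighbour was not computed, so these counts are descriptions. Whether these neighbours bear on the Oasl2 difference was not tested.

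**Figure D5:**
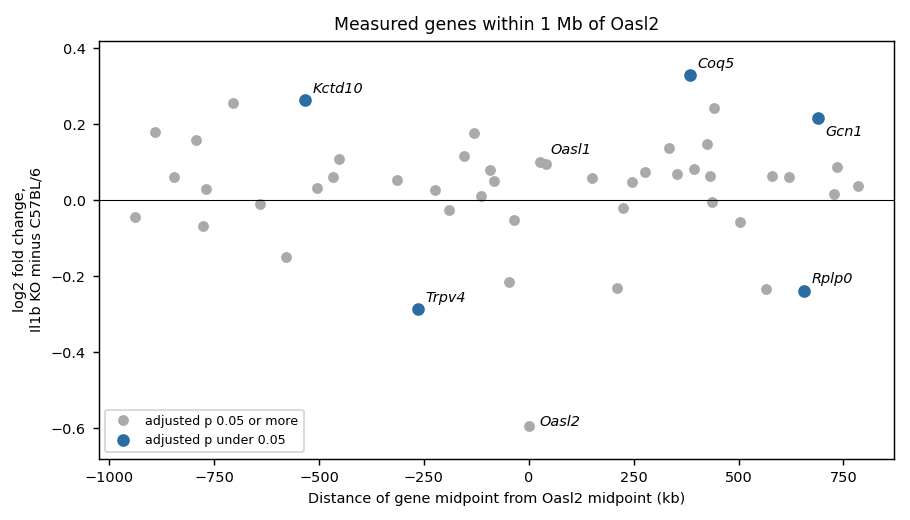
Log2 fold change in Il1b KO minus C57BL/6 cords (vertical axis) of the measured genes within 1 Mb of Oasl2, by the distance of the gene's midpoint from that of Oasl2 in kb. The 5 coloured genes passed an adjusted p of 0.05 and lie on both sides of Oasl2, with 3 above and 2 below zero.

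The interferons and their receptors showed no change past the threshold: 0 of 20 measured genes passed in any of the 3 comparisons. Of the 24 listed, 4 had only a probe set shared with other genes. Several interferons were dim, such as Ifna11, Ifnk and Ifna13 at 4.22, 4.95 and 5.09 in C57BL/6 cords, while Ifna5 read 8.81. A change in dim interferons could be missed. An unadjusted p under 0.05 in limma was reached by 0 of the 20 in either comparison with C57BL/6 and by 1 between the knockouts. Over all genes the shares were 8.32% in the Il1a KO and 7.79% between the knockouts. In the Il1b KO 8.42% of all genes were higher and 4.58% lower at that p. Ifnb1, interferon beta, was dim and averaged 5.95 ± 0.0427 in Il1a KO, 5.92 ± 0.12 in Il1b KO and 5.83 ± 0.0382 in C57BL/6 cords. All Il1a KO arrays of Ifnb1 lay above all C57BL/6 arrays, by a log2 fold change of 0.12 (adjusted p = 0.602 by limma). Ifng, interferon gamma, averaged 6.71 ± 0.0347, 6.60 ± 0.0924 and 6.72 ± 0.205 in the same groups. The receptor chains Ifnar1, Ifnar2, Ifngr1 and Ifngr2 differed from C57BL/6 by -0.11 to -0.01 in the Il1a KO and by -0.03 to 0.03 in the Il1b KO.

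Of the 23 measured signalling genes of the pathway, 0 passed in any of the 3 comparisons, and at an unadjusted p under 0.05 there were 3 in the Il1a KO, 1 in the Il1b KO (lower) and 3 between the knockouts (limma). Over all genes the shares at that p were 8.32% in the Il1a KO and 7.79% between the knockouts. In the Il1b KO they were 4.58% for lower genes and 8.42% for higher genes. Irf3, the factor that starts interferon beta transcription, differed by -0.03 in the Il1a KO and 0.05 in the Il1b KO. Irf8, a factor of myeloid cells and microglia, averaged 8.36 ± 0.107 in Il1a KO, 8.27 ± 0.0542 in Il1b KO and 8.45 ± 0.0717 in C57BL/6 cords. Its difference in the Il1b KO was -0.18 (adjusted p = 0.196 by limma), and the Il1b KO arrays lay below the C57BL/6 arrays. In the Il1a KO the arrays of Stat3, a signal transducer of cytokine receptors, and of Sting1, the adaptor for cytosolic DNA sensing, lay below the C57BL/6 arrays, by -0.13 (adjusted p = 0.328) and -0.20 (adjusted p = 0.334 by limma).

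Among 60 further interferon-stimulated genes that were measured, 0 passed in the Il1a KO, beside 0.171% of all genes, and 3 passed in the Il1b KO, beside 0.813%, of which 2 rose and 1 fell. At an unadjusted p under 0.05 in limma there were 9 of 60 in the Il1a KO, beside 8.32% of all genes. In the Il1b KO there were 3 higher and 10 lower, beside 8.42% and 4.58%. Cxcl11, a chemokine that draws CXCR3-bearing cells, read 6.91, 7.03, 6.74 and 7.23 in Il1b KO cords and 6.53, 6.26, 6.30 and 6.58 in C57BL/6 cords, without overlap, a log2 fold change of 0.56 (SE 0.0993, 1.48-fold, adjusted p = 0.0154 by limma). Adar, an RNA-editing enzyme, read 9.84, 9.80, 9.85 and 9.81 in Il1b KO cords and 9.65, 9.69, 9.59 and 9.62 in C57BL/6 cords, and rose by 0.19 (adjusted p = 0.0492 by limma). Mlkl, the executor of necroptosis, read 6.69, 6.71, 6.77 and 6.72 in Il1b KO cords and 7.21, 7.08, 7.12 and 6.95 in C57BL/6 cords, and fell by 0.37 (adjusted p = 0.00328 by limma). Adar and Mlkl differed in the same directions in the Il1a KO, against the same C57BL/6 arrays and also without overlap. Their log2 fold changes there were 0.15 (adjusted p = 0.257) and -0.26 (adjusted p = 0.108 by limma), while that of Cxcl11 was 0.03.

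Cxcl11 thus ran opposite to most of the 34 members in the Il1b KO, and it was also the gene of this wider list that differed between the knockouts, lower in the Il1a KO by a log2 difference of -0.54 (adjusted p = 0.0246 by limma). Cxcl10, a chemokine for the same receptor, averaged 9.56 ± 0.474 in Il1a KO, 9.06 ± 0.264 in Il1b KO and 9.33 ± 0.203 in C57BL/6 cords, and its difference did not pass in either knockout (adjusted p = 0.869 and 0.606 by limma). The 60 genes had a median log2 fold change of -0.02 in the Il1a KO and -0.07 in the Il1b KO, and 40 of 60 were lower in the Il1b KO. On Il1a KO replicates 1 to 4 they deviated by -0.15, -0.09, 0.08 and 0.18, in the same order as the 34 members.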

How the data were processed

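Whole-transcript arrays of 12 contused cords were analysed, 4 per group. The deposited table holds log2 values, 1 for each probe set on each array. The submitters' processing notes list GCOS 1.4, RMA, limma and Partek without saying what each was used for. The log2 scale and RMA summarisation were inferred from this list and from the range of the values, 2.97 to 14.4. RMA equalises the arrays' distributions, so a shift of total RNA would not show, and it compresses differences of dim genes. Of 35557 probe sets, 21789 had 1 gene symbol in the platform annotation and gave 19938 genes. Where a gene had several probe sets (999 genes), the brightest was used.

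Group means were fitted to all 12 arrays with limma 3.58.1 in R 4.3.3, and the 3 contrasts were tested two-sided with moderated statistics and Benjamini-Hochberg adjustment over all genes, at a threshold of 0.05. The fit was tested on simulated data. Replicates are called biological in the labels, which do not tie them to animals, so p-values reflect only how much these arrays varied. Precision is limited by the number of arrays. The members and lists were chosen with earlier results of these data known. Values on every array are given for the 6 members with the smallest p in each contrast. Oasl1, Usp18 and the shared probe sets were added after their values were seen. Alternatives were a trended and robust variance, array quality weights, only the groups compared, a filter on genes under a log2 value of 6, a replicate block, the mean of a gene's probe sets, quantile normalization again, centring on array medians, and each array left out.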

Additional observations from a re-analysis of the deposited data

Results flagged for a closer look

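Among the 102 combinations of a member and a group, 5 held an array far from the other 3 of its group, measured as the gap to the nearest array over the group's whole range, and chance alone would mark about 1 in 20. Il1a KO replicate 1 was low for Bst2, at 8.53 against 8.68 to 8.71 on the other Il1a KO arrays (ratio 0.865). The other flags were all of C57BL/6 replicate 3, the array with the highest member mean of its group. It read 8.85 for Cmpk2 against 8.64 to 8.68 on the other C57BL/6 arrays (0.839) and 6.66 for Mx2 against 6.31 to 6.34 (0.922). It read 8.87 for Herc6 against 8.46 to 8.50 (0.886) and 10.80 for Lgals3bp against 10.56 to 10.60 (0.845). The cause was not tested.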

How the results depend on the processing

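In Il1b KO against C57BL/6 the count of members past the threshold was 0 as reported, and 1 (Oasl2, lower) with array quality weights (adjusted p = 0.0453) and with the replicate number as a block (adjusted p = 0.0454, limma). Under the other alternatives it was 0, and in Il1a KO against C57BL/6 and Il1a KO against Il1b KO it was 0 under every alternative run. The log2 fold change of Oasl2 in the Il1b KO ran from -0.67 to -0.53 over all alternatives, and its adjusted p from 0.0453 to 0.273. Same-numbered arrays had residual correlations from -0.374 to 0.441, of both signs. For C57BL/6 with Il1b KO, replicate 3 gave 0.441 against at most 0.162 with other numbers. Replicate 1 gave 0.0108 there, against up to 0.568 with other numbers. Whether the replicate numbers pair the arrays cannot be decided from these few correlations, and the labels do not state it. The block changed no other call among the members and gave 120 genes in place of 162 for the Il1b KO.

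The count over all genes moved more. It was 34 for the Il1a KO, with 15 to 306 over the alternatives, 162 for the Il1b KO, with 85 to 1145, and 130 between the knockouts, with 88 to 244. The highest count in both comparisons with C57BL/6 came from array quality weights. The median member log2 fold change kept its sign in the Il1b KO, from -0.17 to -0.09, and between the knockouts, from 0.06 to 0.19. In the Il1a KO it changed sign, from -0.11 without Il1a KO replicate 4 to 0.07 with array quality weights, and was 0.05 without C57BL/6 replicate 3 and 0.04 without Il1a KO replicate 2. The spread of members without Il1a KO replicate 1 or 4 was added after the data were seen, and 27 to 29 of 34 members were then among the most variable genes, against 31 as reported. The number of arrays limits what can be detected, and the cause of these shifts was not tested.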
